A study of Mus musculus with 246 samples.

Results

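The dorsomedial thalamus (DMT) of adult mice was compared with 5 other brain regions labelled as the same animals. The members are the 7 DMT libraries of the Ctrl_Vehicle NoInteraction animals, chosen by the region and condition in the sample labels, out of 41 DMT libraries among 41 of each of 6 regions. Each was set against the mean of 5 libraries labelled with the same animal number, which adds 35 libraries in all. They came from the nucleus accumbens (Nacc), ventral hippocampus (HC), basolateral amygdala (BLA), prefrontal cortex (PFC) and anterior cingulate cortex (ACC). Poly-A RNA was sequenced from bilateral tissue punches, and those of the DMT spanned the same stretch from front to back as those of the BLA. The animals were male offspring of outbred CD1 mice. Ctrl animals grew up with standard bedding, and Vehicle means that their dam had received the gel without drug. NoInteraction means that no unfamiliar mouse was met before the brain was taken. The other 5 groups were Ctrl_Vehicle SocialInteraction, ELA_Vehicle NoInteraction, ELA_Vehicle SocialInteraction, ELA_SAFit2 NoInteraction and ELA_SAFit2 SocialInteraction. ELA is early life adversity, given as limited bedding and nesting material. SAFit2 is an inhibitor of FKBP51 that was injected into the dam and reached the pups through her milk, and SocialInteraction means 10 minutes with an unfamiliar mouse.

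The thalamus arises from the diencephalon, whereas the 5 other regions belong to the telencephalon. Its relay neurons are glutamatergic, use the vesicular transporter VGLUT2, carry transcription factors such as TCF7L2 and GBX2, and switch between tonic and burst firing through low-threshold calcium channels. Rodent dorsomedial nuclei hold few GABAergic interneurons, and much of their inhibition comes from the thalamic reticular nucleus outside them. The habenula lies just above these nuclei, and the ventricle with its ependymal lining and choroid plexus is close by, so the genes of these neighbours are given apart.

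The total estimated count lay between 23066810 and 34211845 in the 7 DMT libraries and between 21645557 and 39360378 over the 42 libraries. Levels are given in CPM, the usual unit of counts relative to the total of a library, after scaling by TMM, a size factor that takes most genes to be alike. In an identity check with 60 genes that differ between animals, 0 of 41 DMT libraries matched another animal, while 12 of 41 Nacc libraries did, 2 of them among the 7 Nacc libraries used here. The Nacc library labelled animal 1 matched animal 89 of Ctrl_Vehicle SocialInteraction, and that labelled animal 81 matched animal 37 of ELA_Vehicle NoInteraction. Library names run on from region to region, so library order and region cannot be told apart.

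The levels of 19 marker genes of thalamic neurons were set beside the tissue label. This list was chosen with earlier results of these data known, so its counts are no independent check of the label. All 19 were higher in DMT than the mean of the 5 regions by both thresholds used here, an adjusted p (Benjamini-Hochberg) under 0.05 in edgeR's quasi-likelihood test and a log2 difference of at least 1, which 8.55% of all genes tested passed in this direction. Their summed level ran from 5916 to 7255 CPM in the 7 DMT libraries, against 231 to 831 CPM in the other 35, where both extremes were HC libraries. Their median log2 difference was 4.44, beside -0.01 over all 16066 genes tested. In 17 of the 19 every DMT library lay above all 35 others, as in 11.0% of all genes tested. The exceptions were Foxp2, with means of 112 CPM in DMT and 120.0 CPM in the Nacc, and Cbln2, with 50.5 CPM in DMT and 44.1 CPM in the PFC.

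Tcf7l2, a transcription factor that maintains thalamic identity (gene body chr19:55741820-55933654 in GENCODE M21, build GRCm38), had a lowest, median and highest level of 436, 461 and 492 CPM in DMT. The highest of the other 35 libraries was an HC library at 44.9 CPM, so the groups were far apart. Over its nearest region, the HC, Tcf7l2 was 25.1-fold higher (log2 difference 4.65 ± 0.27 SE, adjusted p = 4.96e-17, edgeR). Slc17a6, which encodes VGLUT2 (chr7:51622006-51671119), had 714, 750.0 and 803 CPM in DMT and no more than 44.2 CPM elsewhere. It was 29.6-fold above its nearest region, the BLA (log2 difference 4.89 ± 0.23 SE, adjusted p = 2.07e-19). Shox2, a homeobox factor of thalamic neurons (chr3:66971727-66981771), had 186, 210.0 and 234 CPM in DMT. It was nearly silent in 4 regions, where the highest library had 0.206 CPM, and varied from 0.246 to 14.6 CPM in the HC. Gbx2, a homeobox factor of the developing thalamus (chr1:89927956-89931179), had 62, 65.2 and 73.2 CPM in DMT and at most 5.66 CPM elsewhere, in a Nacc library.

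The sequences before the start of these 4 genes are shown because the genes were high together and 1 of them, Tcf7l2, encodes a DNA-binding factor with a known short core motif. They are the 250 bases before the start in RefSeq, build GRCm38.p6, read 5′ to 3′ on the gene's strand, and for Tcf7l2 and Slc17a6 the first of 2 such windows. Capitals mark the TCF/LEF core CTTTGA or its reverse complement TCAAAG, the only motif searched.
Shox2, chr3:66981772-66982021, minus strand: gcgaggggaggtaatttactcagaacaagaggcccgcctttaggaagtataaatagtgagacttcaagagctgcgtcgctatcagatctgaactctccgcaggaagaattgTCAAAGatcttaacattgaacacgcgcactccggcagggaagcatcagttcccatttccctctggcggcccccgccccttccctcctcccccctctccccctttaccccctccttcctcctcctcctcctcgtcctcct
Gbx2, chr1:89931177-89931426, minus strand: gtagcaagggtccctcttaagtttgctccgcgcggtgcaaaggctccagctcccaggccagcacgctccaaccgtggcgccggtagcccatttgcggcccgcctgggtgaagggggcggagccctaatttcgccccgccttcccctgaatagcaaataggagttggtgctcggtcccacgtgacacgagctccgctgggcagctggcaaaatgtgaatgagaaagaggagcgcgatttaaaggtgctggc
Tcf7l2, chr19:55741560-55741809, plus strand: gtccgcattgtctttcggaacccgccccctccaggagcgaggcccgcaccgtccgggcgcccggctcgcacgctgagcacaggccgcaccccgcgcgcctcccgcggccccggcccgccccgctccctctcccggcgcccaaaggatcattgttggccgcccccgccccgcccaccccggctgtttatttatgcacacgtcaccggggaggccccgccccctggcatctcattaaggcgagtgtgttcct
Slc17a6, chr7:51621580-51621829, plus strand: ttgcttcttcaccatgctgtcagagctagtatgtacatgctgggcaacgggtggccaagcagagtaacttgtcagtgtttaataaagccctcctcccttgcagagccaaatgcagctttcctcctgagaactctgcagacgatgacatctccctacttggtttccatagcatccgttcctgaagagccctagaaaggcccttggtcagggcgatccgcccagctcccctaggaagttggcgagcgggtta
The Shox2 window held 1 match, which began 139 bases before the start, and the other 3 windows held none. Of the 19 thalamic marker genes 16 had a window, and 3 of their 22 windows held the core (13.6%). The share was 13.8% over all 32851 windows of that length and 10.8% over the windows of all genes tested. It was 11.0% over the windows of genes called higher in DMT with both thresholds and 11.2% over those of genes called lower.

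**Figure D1:**
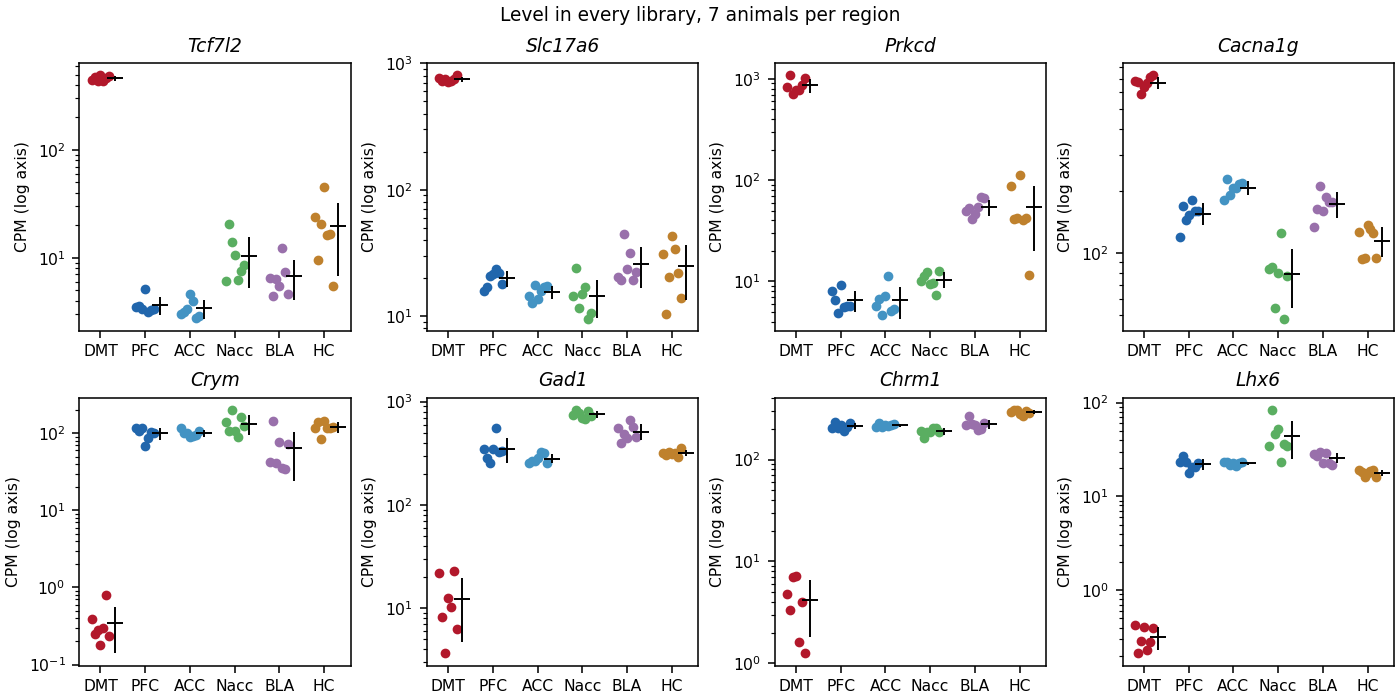
Level of 8 genes in every library on a log axis in CPM, by region, 7 animals each, with the mean and SD as a black bar beside the points. The DMT points of Tcf7l2, Slc17a6, Prkcd and Cacna1g sit above those of every other region, and those of Crym, Gad1, Chrm1 and Lhx6 sit below.

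Against the mean of the 5 regions, 6067 of the 16066 genes were higher in DMT (37.8%) and 6052 were lower (37.7%) at an adjusted p under 0.05. With the fold threshold, 1373 were higher (8.55%) and 1442 were lower (8.98%). Every DMT library lay above all 35 others in 1773 genes (11.0%) and below all of them in 1448 (9.01%). Against single regions with the fold threshold, 1138 genes were higher than in the BLA (7.08%), 1526 than in the Nacc (9.50%), 1596 than in the PFC (9.93%), 1619 than in the ACC (10.1%) and 1621 than in the HC (10.1%). Lower were 1467 genes against the ACC (9.13%), 1531 against the Nacc (9.53%), 1557 against the PFC (9.69%), 1594 against the HC (9.92%) and 1754 against the BLA (10.9%). These 5 comparisons use the same DMT libraries. In the counts of genes and lists that follow, higher and lower mean both thresholds unless an adjusted p alone is named. The shares of all genes to set beside these counts are 8.55% higher and 8.98% lower. At the adjusted p alone they are 37.8% and 37.7%.

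The 15 genes that stood furthest above their nearest region were Gm5741, Pou4f1, Irx2, Shox2, Gpr151, Cd247, Slc17a6, Grid2ip, Gbx2, Chrna3, Gckr, Snx31, Tcf7l2, Epha1 and Slc6a5. Their folds over that region ended at 20.5 for Slc6a5. Gm5741, a predicted gene, headed the list on 1213 counts in the DMT libraries and 1 to 5 counts in all libraries of each other region. Within DMT it ran from 1.43 CPM in animal 81 to 17.7 CPM in animal 9, with a median of 2.8 CPM. The same animals had the lowest and the highest sum of the habenula list described below. Pou4f1, Gpr151 and Chrna3 are known from the habenula and are taken up below. Grid2ip, which encodes a scaffold protein for the delta2 glutamate receptor, had 146, 167 and 187 CPM in DMT and at most 13.4 CPM elsewhere, 28.1-fold above the HC (log2 difference 4.81 ± 0.21 SE, adjusted p = 1.74e-20). Gckr, which encodes the glucokinase regulatory protein, had 10.7, 12.4 and 13.6 CPM in DMT and at most 0.97 CPM elsewhere. Cd247, the zeta chain of the T cell receptor complex, had 4.49, 5.18 and 6.12 CPM in DMT and at most 0.242 CPM elsewhere. Both were low but separated from every other library. Epha1, an ephrin receptor, had 8.47, 10.1 and 13 CPM in DMT against at most 0.951 CPM, and the sorting nexin gene Snx31 had 15.7, 18.5 and 23.6 CPM against at most 1.13 CPM. Slc6a5, the neuronal glycine transporter GLYT2, was uneven within DMT, with 31 CPM in animal 41, a median of 3.46 CPM and a lowest value of 0.822 CPM.

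Genes far below their nearest region, chosen by the same rule, were Crym, Kcnv1, Mas1, Kcnj4, Icam5, Vip, Ankrd63, Lhx6 and Itpka. Crym, which encodes a thyroid hormone-binding crystallin (chr7:120186380-120202111), had 0.179, 0.284 and 0.796 CPM in DMT and at least 34 CPM in the 35 other libraries. Relative to its nearest region, the BLA, it was 174-fold lower (log2 difference -7.45 ± 0.37 SE, adjusted p = 1.06e-18). Icam5, telencephalin, an adhesion molecule on dendrites of telencephalic neurons, had 1.45, 2.06 and 3.74 CPM in DMT and at least 172 CPM elsewhere. For these genes the DMT libraries and the others did not come near each other. The potassium channel genes Kcnv1 and Kcnj4 had at most 0.671 and 1.46 CPM in DMT and at least 39.6 and 46.6 CPM in the other libraries. Itpka, an inositol trisphosphate kinase of dendritic spines, had 1.06, 1.65 and 2.10 CPM in DMT against at least 79.1 CPM. Mas1, the receptor for angiotensin-(1-7), was counted 13 times and Vip, a peptide of cortical interneurons, 15 times in all 7 DMT libraries together.

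Transcription factors of the diencephalon were mostly higher in DMT and those of the telencephalon mostly lower. Of 23 diencephalic factors tested, 20 were higher in DMT, 1 was lower and 2 passed in neither direction, with a median log2 difference of 3.88. Of 19 telencephalic factors 15 were lower (the share of all genes is 8.98%), 4 passed in neither direction and 0 were higher, with a median of -4.37. The orphan nuclear receptor gene Rora had 648, 748 and 894 CPM in DMT, 9.82-fold above the HC, and Lef1, a partner of Tcf7l2 in its family, had 71.5, 79.3 and 97.8 CPM, 9.42-fold above the HC. All 5 Zic genes were higher, among them Zic1 with 507, 545 and 607 CPM in DMT and at most 48.6 CPM elsewhere. The Iroquois genes Irx1, Irx2, Irx3 and Irx5, homeobox factors of the caudal forebrain, were higher as well, with means of 9.53, 12.6, 4.36 and 3.48 CPM in DMT. Lhx9 had a median of 113 CPM in DMT but also 23.3 to 29.3 CPM in the HC, which left a 4.36-fold difference (log2 difference 2.12 ± 0.28 SE, adjusted p = 3.38e-08). Pax6, the 1 that was lower but missed the fold threshold without animal 65 and without the BLA among the reference regions, had a mean of 5.67 CPM in DMT and means from 7.72 to 21.6 CPM in the regions. Among telencephalic factors, Emx1 had at most 0.121 CPM, Fezf2 at most 0.213 CPM and Neurod6 at most 0.532 CPM in a DMT library. Lhx2, Sox5, Etv1 and Eomes did not pass, with DMT means of 28.5, 35.3, 118 and 0.492 CPM.

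**Figure D2:**
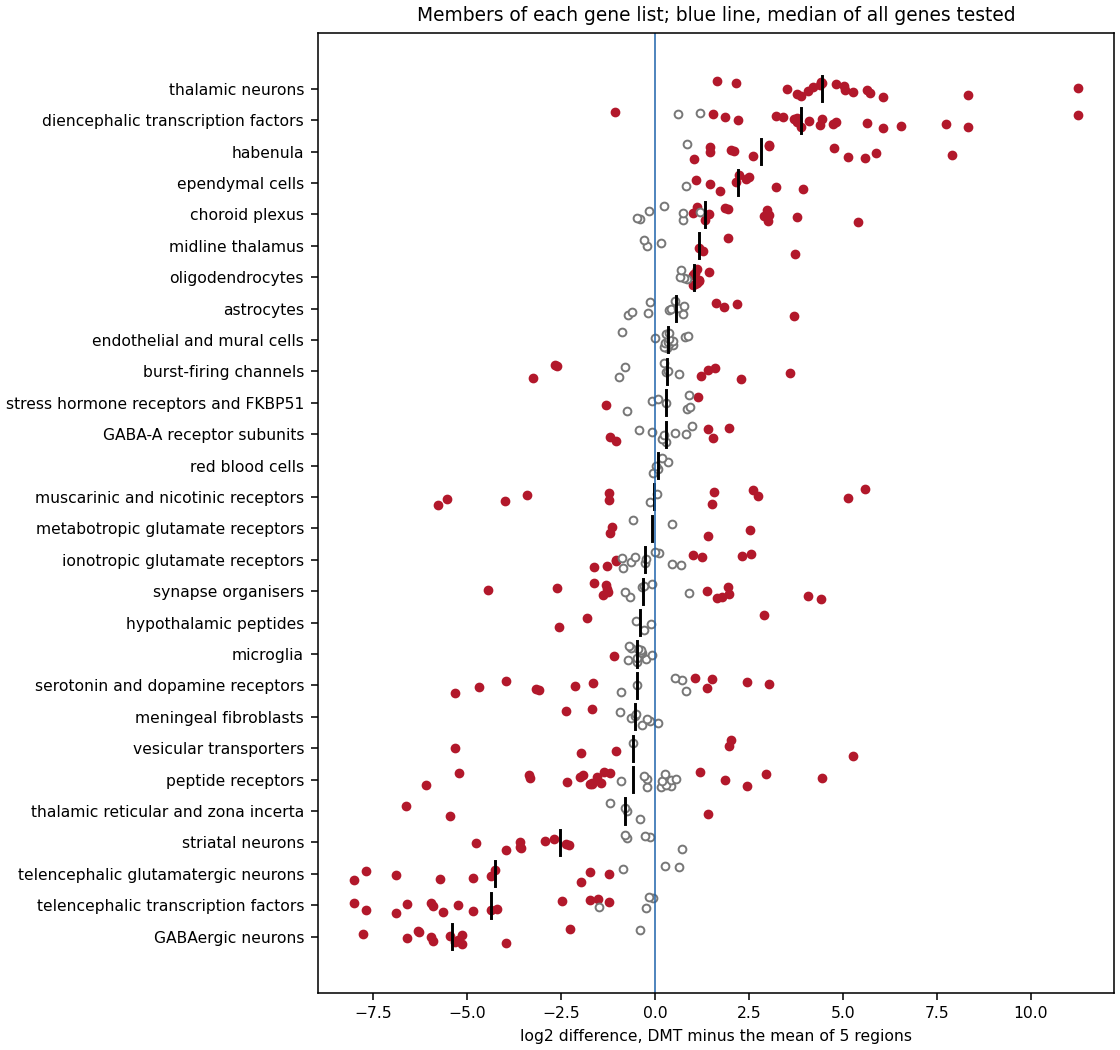
Log2 difference of every tested gene of 28 lists, DMT minus the mean of 5 regions, with the list median as a black line and the median of all genes as a blue line. Red points pass both thresholds and open grey points do not, and the medians run from -5.39 for GABAergic neurons to 4.44 for thalamic neurons.

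GABAergic and telencephalic glutamatergic genes were low in DMT. Of 14 GABAergic genes 13 were lower, with a median log2 difference of -5.39, and Pvalb, with a log2 difference of -0.40, passed at the adjusted p alone. Gad1, which encodes the GABA-producing enzyme GAD67, had 3.65, 10.2 and 22.9 CPM in DMT and between 255 and 829 CPM elsewhere. It was 23.8-fold below the ACC, its nearest region (log2 difference -4.57 ± 0.22 SE, adjusted p = 4.89e-19). Lhx6, Sst, Npy and Lamp5, which mark cortical interneuron classes, had DMT means of 0.318, 3.37, 1.24 and 1.11 CPM. The GABAergic list summed to 34 to 87.5 CPM in the DMT libraries, and the lowest library of the other regions had 783 CPM. In bulk RNA, fewer cells of a type and less RNA per cell cannot be told apart. Of 13 telencephalic glutamatergic genes 10 were lower, with a median of -4.25, and of 14 striatal genes 9 were lower, with a median of -2.53. Of 7 genes of the thalamic reticular nucleus and zona incerta, neighbours of the punch, Sst and Meis2 were lower and Spp1 was higher, at 6.89 CPM on average. Pvalb, which reticular neurons express strongly, had 10.7 to 16.9 CPM in DMT and means from 13.6 to 24.8 CPM in the other regions.

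The glutamate transporters of synaptic vesicles took opposite orders in DMT and in the other regions. Scaled to exon length, the level of Slc17a6 was 138.0 CPM per kilobase in DMT and that of Slc17a7, which encodes the cortical transporter VGLUT1, was 46.0. In the other regions the order was reversed, with Slc17a6 at 2.69 to 4.77 and Slc17a7 at 64.4 to 312.0 CPM per kilobase. Slc17a7 had 191, 245 and 289 CPM in DMT and missed the threshold against the Nacc (log2 difference -0.40 ± 0.35 SE, adjusted p = 0.297), whose lowest library had 21.5 CPM. Slc32a1, which encodes the vesicular GABA transporter, had 0.532, 1.62 and 5.34 CPM in DMT and at least 52.4 CPM elsewhere.

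Of 14 genes of burst firing and the currents around it, 5 were higher and 3 were lower. Cacna1g, the T-type calcium channel of relay neurons, had 587, 673 and 726 CPM in DMT and at most 229 CPM elsewhere. It was 3.23-fold above the ACC (log2 difference 1.69 ± 0.12 SE, adjusted p = 3.52e-14). The other T-type channels were lower in DMT. Cacna1h had a median of 14.4 CPM in DMT against 94 to 272 CPM, and Cacna1i had 46.3 to 66.6 CPM against 73 to 147 CPM, a log2 difference from the mean of -0.96 that passed at the adjusted p alone. Per kilobase of exon, the level of Cacna1g was 66, that of Cacna1i 5.80 and that of Cacna1h 1.54 CPM in DMT. The pacemaker channel gene Hcn4 had 99.5, 114 and 130.0 CPM in DMT and at most 21.4 CPM elsewhere, 7.79-fold above the Nacc (log2 difference 2.96 ± 0.20 SE, adjusted p = 6.62e-15). Hcn2 was 1.76-fold above the Nacc, with 204 to 254 CPM in DMT. The leak channel gene Kcnk3 and the calcium-activated potassium channel gene Kcnn3 completed the higher genes, and the cation channel gene Trpc4 and the chloride channel gene Ano2 the lower ones.

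Among 13 GABA-A receptor subunits 3 were higher and 2 were lower. Gabra4, a subunit of extrasynaptic receptors, had 334, 369 and 415 CPM in DMT and at most 174 CPM elsewhere, 2.39-fold above the Nacc (log2 difference 1.26 ± 0.06 SE, adjusted p = 6.65e-20). Gabrd, its usual extrasynaptic partner, was higher than the mean by 1.41 on the log2 scale, but its lowest DMT library was just below the highest Nacc library, with means of 120.0 CPM in DMT and 90.9 CPM in the Nacc. Gabre was the third, at 2.60 CPM on average and 6.60 CPM in the BLA. Gabra2 and Gabra5 were lower, with log2 differences of -1.03 and -1.21, close to the fold threshold. Without animal 97 or without the BLA 1 subunit was still lower by both thresholds, and without the HC among the reference regions 0 were. Gabra2 had 90.9 to 112 CPM in DMT and Gabra5 had 23.4 to 39.8 CPM.

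Of 18 ionotropic glutamate receptor genes 4 were higher and 4 were lower. The higher genes were all NMDA receptor subunits. Grin2d had a lowest level of 79.9 CPM and a median of 98.3 CPM in DMT and at most 36.5 CPM elsewhere, 4.62-fold above the HC (log2 difference 2.21 ± 0.14 SE, adjusted p = 1.47e-15). Grin2c, Grin3a and Grin3b were higher by 1.26, 1.01 and 2.56 on the log2 scale, with Grin3b at only 0.661 CPM on average. Grin3a was close to the fold threshold, with a log2 difference of 0.99 without animal 41, 0.97 without the Nacc and 0.90 without the HC, and without the pair of Nacc libraries that matched another animal 3 genes of the list were higher by both thresholds. The lower genes were the AMPA receptor subunits Gria2 and Gria3 and the kainate receptor subunits Grik4 and Grik5. Gria2, the subunit that limits calcium flow, had 280.0, 292 and 306 CPM in DMT and at least 735 CPM elsewhere, 2.69-fold below the BLA (log2 difference -1.43 ± 0.04 SE, adjusted p = 1.37e-24). Of 6 metabotropic receptors Grm2 and Grm4 were higher, by 1.42 and 2.53 on the log2 scale, and Grm3 and Grm5 were lower. Grm5, a group I receptor, had 133, 143 and 152 CPM in DMT and at least 239 CPM elsewhere.

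**Figure D3:**
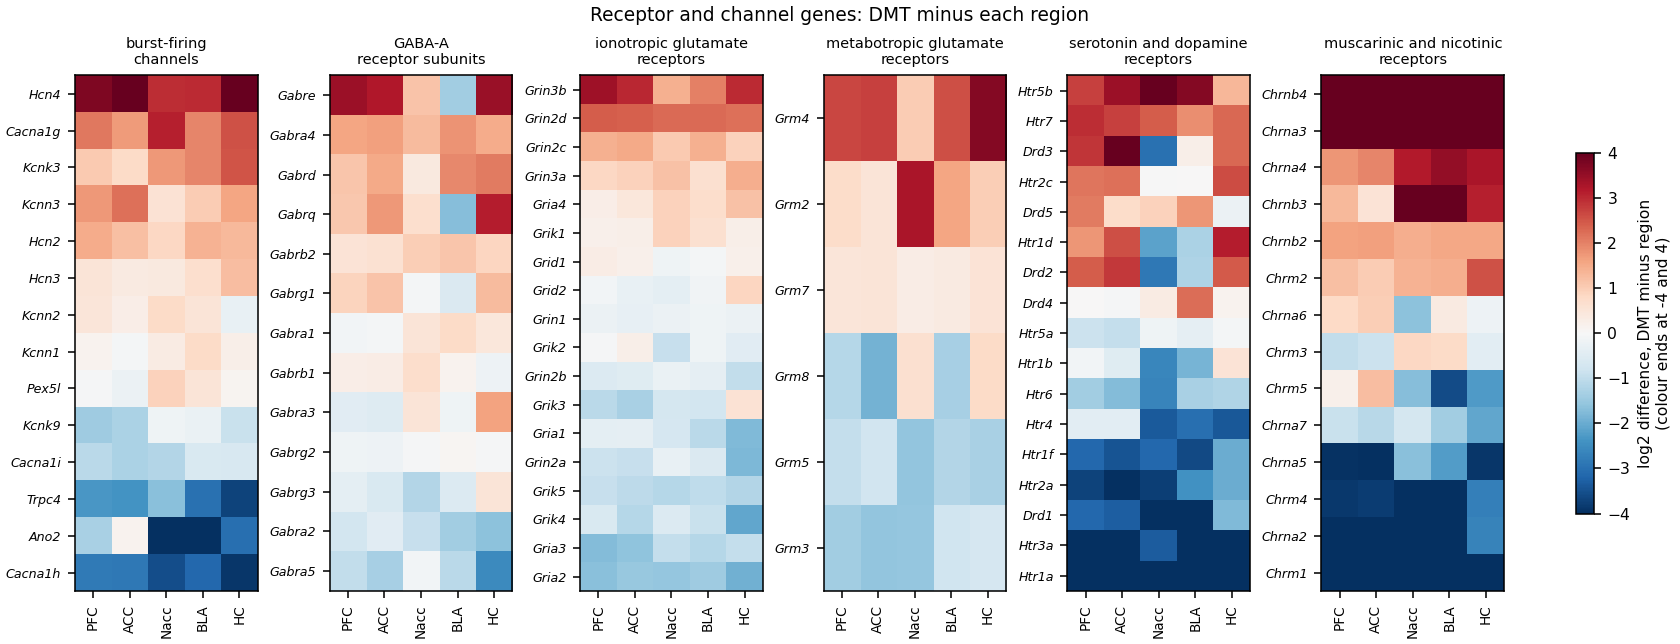
Log2 difference between DMT and each of the 5 regions for the genes of 6 receptor and channel lists, red for higher in DMT and blue for lower, with the colour ending at 4 in both directions. Within each list some genes are red and others blue against all 5 regions, such as Hcn4 and Cacna1h.

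The cholinergic receptors divided in DMT, with 6 of 14 higher and 6 lower. Chrna4 and Chrnb2, which together form the main nicotinic receptor of the brain, had 239, 248 and 287 CPM and 206, 217 and 242 CPM in DMT. Chrna4 was 3.40-fold above the PFC (log2 difference 1.77 ± 0.17 SE, adjusted p = 2.86e-11) and Chrnb2 2.72-fold above the Nacc (log2 difference 1.44 ± 0.05 SE, adjusted p = 4.71e-24). Both were separated from every other library, as was the muscarinic receptor Chrm2. Chrm1, the main muscarinic receptor of forebrain pyramidal neurons, had 1.25, 4.02 and 7.24 CPM in DMT and at least 164 CPM elsewhere, 46.3-fold below the Nacc (log2 difference -5.53 ± 0.18 SE, adjusted p = 7.23e-24). Chrm4, Chrm5, Chrna2, Chrna5 and Chrna7 were lower as well. Chrm5 had a mean of 0.312 CPM in DMT, 0.268 CPM in the PFC, 0.131 CPM in the ACC and 3.73 CPM in the BLA, and without the BLA its log2 difference was -0.64 (adjusted p = 0.113, edgeR). The remaining higher genes, Chrna3, Chrnb3 and Chrnb4, are habenular receptor subunits.

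Of 17 serotonin and dopamine receptors 5 were higher and 7 were lower. Htr7 had 42, 48.4 and 53.2 CPM in DMT and at most 16 CPM elsewhere, 3.63-fold above the BLA (log2 difference 1.86 ± 0.14 SE, adjusted p = 4.14e-14). Htr1a had 0.0782, 0.499 and 0.989 CPM in DMT and at least 9.32 CPM elsewhere, and Htr2a had 3 to 4.39 CPM against at least 11.5 CPM. Htr2c was higher than the mean of the regions, but the Nacc had a mean of 189 CPM beside 186 CPM in DMT. Drd2 had a mean of 20.1 CPM in DMT, between 3.30 CPM in the ACC and 144 CPM in the Nacc.

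Of 30 peptide receptors 5 were higher and 14 were lower. The mu opioid receptor gene Oprm1 had 15.4, 18.1 and 23 CPM in DMT and at most 8.26 CPM elsewhere, whereas the delta opioid receptor gene Oprd1 had 0.106, 0.319 and 0.581 CPM in DMT and at least 8.32 CPM elsewhere. Oprm1 was 2.81-fold above the BLA (log2 difference 1.49 ± 0.17 SE, adjusted p = 2.02e-09) and Oprd1 32.8-fold below the HC (log2 difference -5.03 ± 0.14 SE, adjusted p = 1.11e-25). The galanin receptor Galr1 and the VIP receptor Vipr2 were higher, with DMT medians of 9.12 and 18.6 CPM, and the VIP receptor Vipr1 was lower, with 3.05 CPM. The cholecystokinin receptor Cckbr had a median of 0.516 CPM in DMT and at least 6.19 CPM elsewhere.

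Of 20 genes that organise synapses 7 were higher and 7 were lower. Cbln1, a cerebellin that bridges neurexins and delta glutamate receptors, had 74, 121 and 157 CPM in DMT and at most 15.5 CPM elsewhere, 11.9-fold above the ACC (log2 difference 3.57 ± 0.18 SE, adjusted p = 2.00e-18). Its lowest DMT values were in animals 9 and 41, at 74 and 87.7 CPM. Ntng1, netrin-G1 of thalamic axons, was 8.53-fold above the HC, and its paralogue Ntng2 was lower, with a log2 difference of -1.39. Lrrc4c, the postsynaptic ligand of netrin-G1, had 33.8 to 43.3 CPM in DMT and at least 67.6 CPM elsewhere.

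The midline thalamic list had 4 of 7 genes higher in DMT. Calb2, calretinin, had 272, 381 and 462 CPM in DMT and at most 97.9 CPM elsewhere, and Necab1, a calcium-binding protein, had 714, 805 and 905 CPM against at most 396 CPM.

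Habenula genes were higher in DMT and varied strongly among its libraries. Of 14 listed genes 13 were higher, with a median log2 difference of 2.82. In 6 of the 14 every DMT library lay above all others, as in 11.0% of all genes tested. Pou4f1, the BRN3A factor of habenular neurons, had 7.62, 31.2, 21, 20.1, 9.72, 5.57 and 9.55 CPM in animals 1, 9, 33, 41, 65, 81 and 97, and at most 0.277 CPM in another region. Chrna3, a nicotinic subunit of the medial habenula, had 11.5, 73.9, 39.6, 32.6, 15.1, 6.97 and 6.34 CPM in the same order. Both were highest in animals 9, 33 and 41. Chrnb4, Gpr151 and Htr5b were highest in animal 9 as well, at 52.9, 60.8 and 16.4 CPM. The summed list ran from 129 CPM in animal 81 to 807 CPM in animal 9, a 6.27-fold range, whereas the thalamic list spanned 1.23-fold. In the other 5 regions it lay between 70.6 and 185 CPM, and the DMT libraries of animals 1, 81 and 97 were within that range. Without animal 9, 11 of the 14 were higher. Some members had a higher mean in another region than in DMT. These were the cholinergic genes Chat, Slc18a3 and Slc5a7 in the Nacc, Tac2 in the BLA, and Nwd2 in the PFC and ACC. For Chat, the acetylcholine-making enzyme, the means were 22.6 CPM in the Nacc and 4.44 CPM in DMT. The levels of these genes are part of the list sums of those regions.

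Choroid plexus genes gave another pattern. Of 19 listed genes 12 were higher than the mean of the 5 regions, with a median log2 difference of 1.33, but in all 19 the mean was higher in the BLA than in DMT. Ttr, transthyretin, a main product of the choroid plexus, had 162, 0.0706, 221, 5.59, 349, 24.4 and 2.43 CPM in the DMT of animals 1, 9, 33, 41, 65, 81 and 97. In the BLA it had 1540.0 to 4024 CPM in 6 animals and 0.742 CPM in animal 65. The Ttr means were 0.0694 CPM in the PFC and 0.0481 CPM in the ACC, and the mean of logs over the 5 regions therefore lay below DMT (log2 difference 5.40, adjusted p = 1.08e-04) although the BLA mean was 2352 CPM. The number of choroid plexus genes called higher moved between 7, without the Nacc among the reference regions, and 15, without the BLA. The summed list ran from 227 CPM in animal 9 to 1092 CPM in animal 65 in DMT, and from 195 to 8701 CPM in the BLA. Otx2, a factor of the choroid plexus and of diencephalic neurons, and the prolactin receptor Prlr were present in every DMT library, at 4.54 to 9.45 CPM and 15.3 to 25.8 CPM.

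Of 10 ependymal genes 9 were higher, with a median of 2.20. Separated from every other library were 0 of them, while 11.0% of all genes tested had every DMT library above all others. The mean of the summed list was nevertheless higher in the BLA, at 58.1 CPM, than in DMT, at 44.9 CPM. Of the 10 genes only Tmem212 and Ccdc153 had a higher mean in DMT than in the BLA. The summed list had its highest DMT value, 109 CPM, in animal 65 and its lowest, 10.3 CPM, in animal 97, and the BLA libraries ran from 13.2 to 87.6 CPM. Foxj1, the master factor of motile cilia, had 12.4, 12.6, 15.9, 11.7, 27.8, 5.89 and 5.28 CPM in the DMT of the 7 animals in the order above. Of the 40 genes that varied most among the 7 DMT libraries, among 11463 genes with a mean of at least 5 CPM, 15 were highest in animal 9 and 17 in animal 65. Those highest in animal 9 included Chrna3, Tac2 and Lrrc55 of the habenula list, and those highest in animal 65 included Ttr, Kl, Ccdc153 and Ak7 of the choroid plexus and ependymal lists. The median coefficient of variation over the 11463 genes was 0.0563, and it was 0.922 for Chrna3 and 1.26 for Ttr. The part of these neighbours in the other results was not tested.

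**Figure D4:**
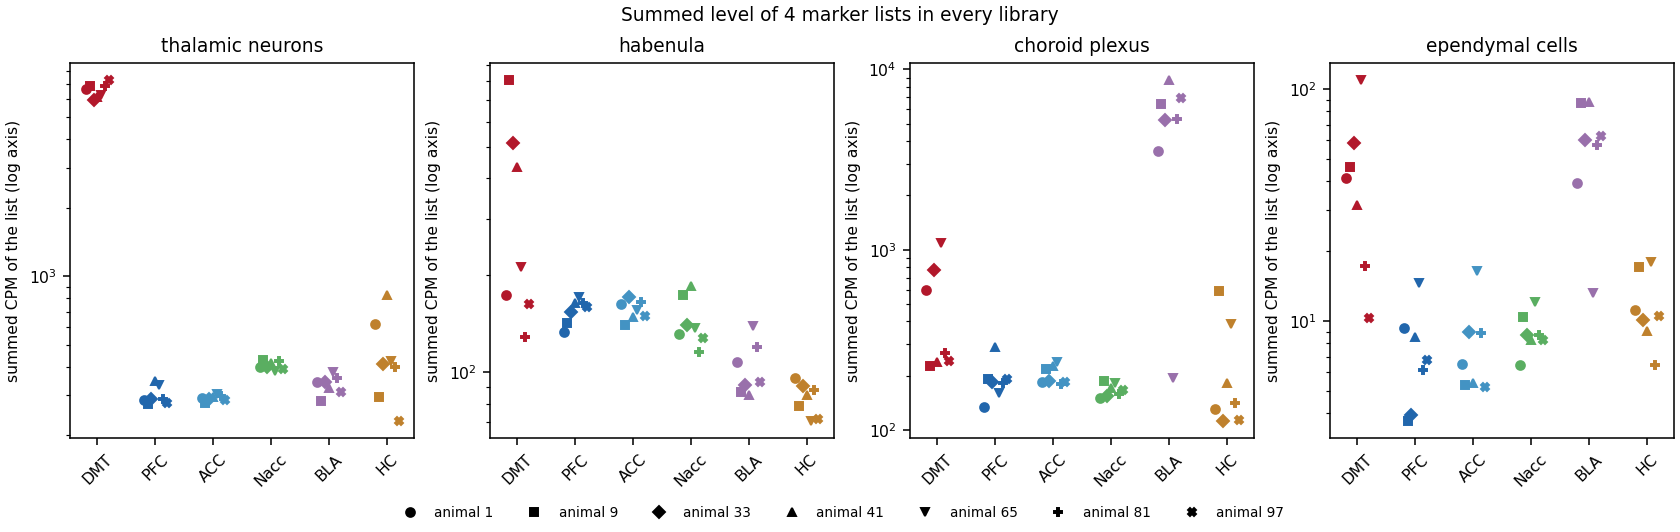
Summed level of 4 marker lists in CPM on a log axis in every library, by region, with 1 symbol per animal. The DMT libraries lie together for thalamic neurons and spread for the habenula, from 129 to 807 CPM, while the choroid plexus sum is highest in BLA libraries.

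Oligodendrocyte genes were higher in DMT by smaller factors. All 14 were higher at an adjusted p under 0.05 and 10 with the fold threshold, against 37.8% and 8.55% of all genes tested. Their median log2 difference was 1.05. The list summed to 5599 to 6804 CPM in DMT and to 1201 to 5687 CPM in the other libraries, so 1 ACC library reached into the DMT range. Without the PFC among the reference regions 1 of the 14 passed with the fold threshold. Mbp, myelin basic protein, was higher by 1.02 on the log2 scale and Hapln2, a protein of the nodes of Ranvier, by 1.43.

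Of 14 astrocyte genes 4 were higher, and the list summed to 5303 to 5786 CPM in DMT and up to 6926 CPM in the HC. Agt, angiotensinogen, had 90.3 to 126 CPM in DMT and at most 31.7 CPM elsewhere, 4.30-fold above the BLA (log2 difference 2.10 ± 0.22 SE, adjusted p = 3.58e-10). Slc6a11, the GABA transporter GAT3, was 3.69-fold and Kcnj10, the potassium channel Kir4.1, was 3.01-fold above the Nacc. Slc1a2, the glutamate transporter GLT-1, had 1843 to 2111 CPM in DMT and at least 2305 CPM elsewhere, and passed at the adjusted p alone. All 12 microglial genes were lower at an adjusted p under 0.05, as were 37.7% of all genes tested. Their median log2 difference was -0.47, and 1 of them passed with the fold threshold. Of 14 endothelial and mural genes and 5 red blood cell genes 0 passed both thresholds in either direction. Of 10 meningeal genes 2 were lower, and of 6 hypothalamic peptide genes 1 was higher and 2 were lower. With the fold threshold 8.55% of all genes were higher and 8.98% lower.

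The receptors of stress hormones were compared because the study targets FKBP51. Nr3c1, the glucocorticoid receptor, had 168, 186 and 210.0 CPM in DMT and at most 124 CPM elsewhere, 1.64-fold above the PFC (log2 difference 0.72 ± 0.05 SE, adjusted p = 1.15e-15). Nr3c2, the mineralocorticoid receptor, had 27.7, 28.6 and 28.9 CPM in DMT and between 32.7 and 237 CPM elsewhere, with its highest values in the HC. So every DMT library was above all others for the glucocorticoid receptor and below all others for the mineralocorticoid receptor. Fkbp5, which encodes FKBP51, had 19.5, 21.2 and 22.8 CPM in DMT. Its log2 difference from the mean of the regions was -0.75, and it missed the threshold against the ACC (log2 difference -0.04 ± 0.07 SE, adjusted p = 0.671). Fkbp4, which encodes the related FKBP52, was 1.71-fold above the ACC (log2 difference 0.78 ± 0.04 SE, adjusted p = 6.05e-19). Tsc22d3, a gene induced by glucocorticoids, was 2-fold above the ACC. Of the 9 genes of this list Tsc22d3 and Nr3c2 passed both thresholds, and Nr3c2 no longer passed the fold threshold without the HC.

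The comparison was repeated in the animals of the other 5 condition groups, 6 or 7 in each. By their labels none of these libraries were used in the first comparison, but 2 of its Nacc libraries matched an animal of Ctrl_Vehicle SocialInteraction and an animal of ELA_Vehicle NoInteraction. The rest of the 12 Nacc libraries that matched another animal were in these 5 groups, whose pairing and condition are therefore by label only. Of the 1373 genes higher in DMT, between 86.2% and 90.2% were again higher with both thresholds, and these made up 91% to 93.5% of the genes each group called higher. Of the 1442 lower genes 84% to 88.5% were again lower, or 89.7% to 92.8% of each group's own. The share of all genes called higher was 8.38%, 8.20%, 8.14%, 7.87% and 8.30% in Ctrl_Vehicle SocialInteraction, ELA_Vehicle NoInteraction, ELA_Vehicle SocialInteraction, ELA_SAFit2 NoInteraction and ELA_SAFit2 SocialInteraction. The share called lower was 8.50%, 8.46%, 8.58%, 8.80% and 8.17% in the same order. In each group 0 or 1 of these genes was called in the opposite direction. The named genes furthest from their nearest region, 15 higher and 9 lower, kept their direction in all 5 groups. The log2 difference from the mean lay between 5.86 and 6.18 for Tcf7l2 and between 4.91 and 5.33 for Slc17a6 over the 6 groups. The 9 lower genes had been chosen for their size in the first group, and 8 of them were furthest from 0 there, the exception being Ankrd63. The summed thalamic list ran from 4066 to 6770.0 CPM of the library total over all 41 DMT libraries, and the habenula list from 40.7 to 1079 CPM.

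Whether the difference between DMT and the other regions depended on the condition was tested in 1 model over the 41 libraries of every region. It passed an adjusted p under 0.05 (edgeR, an F test with 5 degrees of freedom) in 27 of 16066 genes (0.168%), and 629 had an unadjusted p under 0.05. Such a difference can lie in DMT or in the reference regions. Of the 41 Nacc libraries 12 matched another animal, so the condition in their labels may not be theirs. Without the Nacc 19 genes passed, 11 of them among the 27. Among the 27 were Icam5, Ankrd63, Itpka, Dlx1 and Dlx2, genes of the telencephalon that are low in DMT, and all 5 were furthest from the first group in ELA_SAFit2 SocialInteraction, by log2 differences from 1.30 for Itpka to 3.63 for Ankrd63. The adjusted p was 4.11e-06 for Icam5, whose DMT median was 2.01 CPM of the library total in Ctrl_Vehicle NoInteraction. In the other groups it was 1.97 CPM in ELA_SAFit2 NoInteraction, 2.34 in Ctrl_Vehicle SocialInteraction, 2.83 in ELA_Vehicle SocialInteraction, 3.27 in ELA_Vehicle NoInteraction and 3.43 in ELA_SAFit2 SocialInteraction. Its highest library had 3.54 CPM in the first group and 6.05 to 20.2 CPM in the others, so the groups overlapped. The summed level of Crym, Kcnv1, Mas1, Kcnj4, Vip and Lhx6, which are low in DMT and were not among the 27, reached 2.81 CPM of the library total in the DMT of Ctrl_Vehicle NoInteraction. The medians of the 6 groups lay between 1.53 and 3.60 CPM, and the highest library of each other group had 6.27 to 16 CPM. Leaving out DMT libraries was tried in a pair of ways, both chosen after seeing the data. Without the DMT library with the highest sum in each group, 6 in all, 43 genes passed, 21 of them among the 27, and of the 5 genes above Icam5, Ankrd63, Dlx1 and Dlx2 passed while Itpka had adjusted p = 0.198 (edgeR). Without the 17 DMT libraries whose sum was above that of every library of the first group, 5 genes passed, and of the 27 only Cdkn1a and Sln were among them. These 17 were 2 of Ctrl_Vehicle SocialInteraction, 3 of ELA_Vehicle NoInteraction, 3 of ELA_Vehicle SocialInteraction, 4 of ELA_SAFit2 NoInteraction and 5 of ELA_SAFit2 SocialInteraction. Since the 6 genes were chosen for low levels in the first group and its own highest value set the limit, 0 of its libraries could be left out, so neither these counts nor the loss of calls compares the groups. Cdkn1a, which encodes the cell cycle inhibitor p21 and responds to stress, had adjusted p = 0.00105 with all libraries, 0.000536 without the highest library of each group and 0.0207 without the 17. Its DMT median was 4.98, 5.54 and 5.67 CPM of the library total in the 3 NoInteraction groups and 7.61, 7.80 and 8.42 CPM in the 3 SocialInteraction groups. Its lowest SocialInteraction library, at 6.39 CPM, was within the range of the NoInteraction libraries, whose highest value was 6.67 CPM. The highest library of Ctrl_Vehicle SocialInteraction had 38.2 CPM. Set against the first group 1 at a time, no group passed for Cdkn1a, and the smallest adjusted p was 0.0713 (edgeR), in Ctrl_Vehicle SocialInteraction. The F test covers any difference among the 6 groups, and SocialInteraction against NoInteraction was not tested. Rin1, a Ras and Rab5 effector of forebrain neurons, had medians of 3.87 to 5.08 CPM in the NoInteraction groups and 6.47 to 6.74 CPM in the SocialInteraction groups. Rin1 overlapped between them, with 7.28 CPM in the highest NoInteraction library and 3.98 CPM in the lowest SocialInteraction library, both of Ctrl_Vehicle. Its adjusted p was 2.10e-06 with all libraries, 2.37e-06 without the highest library of each group and 1 without the 17 (edgeR).

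**Figure D5:**
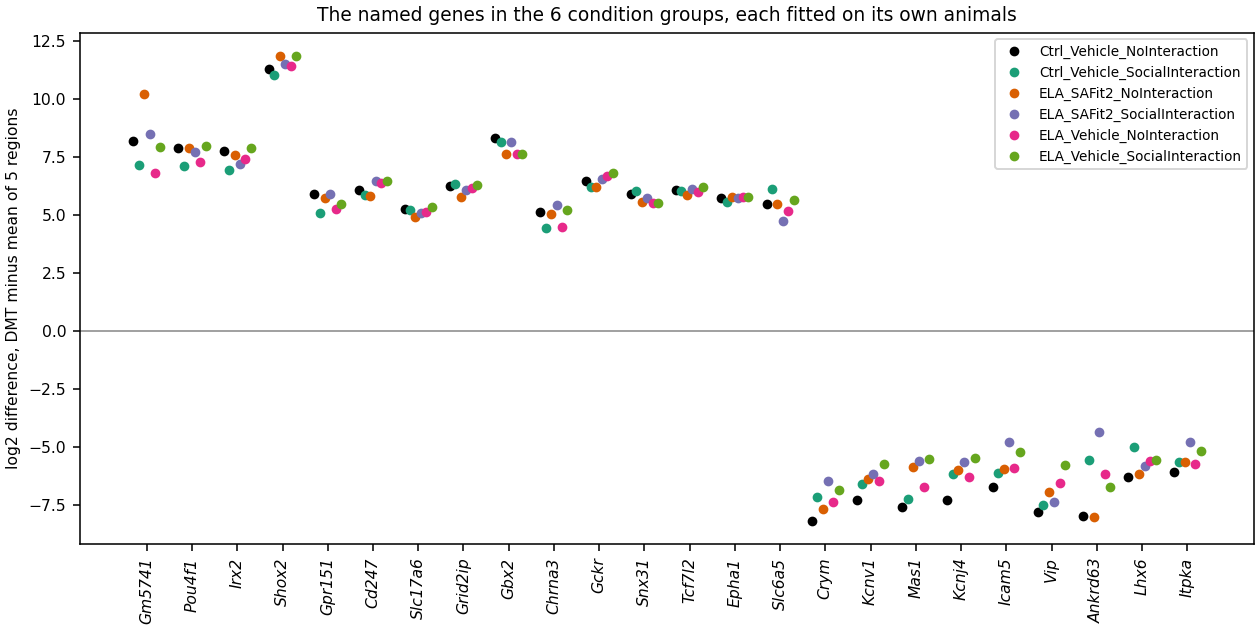
Log2 difference, DMT minus the mean of 5 regions, of the named genes furthest from their nearest region, fitted separately in each of the 6 condition groups. All 15 genes on the higher side lie above 0 and all 9 on the lower side lie below 0 in every group.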

How the data were processed

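Estimated counts per gene were deposited by the authors as 1 table of 56691 genes with 41 libraries from each of 6 regions. The submitters' processing notes name STAR, DESeq2 and the build GRCm39, also written mm39, and the table's name points to salmon. Versions and the annotation release are not given in the sources used here. Of the values 12.12% were not whole, and they were rounded. Reads without molecular identifiers carry copies, so the spread between animals, not the count, sets the precision given here.

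Groups, regions and animal numbers came from the sample labels. Protein-coding genes were taken by identifier from GENCODE M21 (52073 genes typed) and by symbol from RefSeq (978), and 3640 genes could not be typed. The gene bodies printed are those of M21 on GRCm38, a different build from the authors' own. Tested were the genes whose counts added up to 100 or more over the 42 libraries and were above 0 in 6 or more of them. The model held region and animal number, since by the labels the same animal gave all 6 regions. For animals 1 and 81 the Nacc library matched another animal. Deviations of the DMT library correlated with those of the animal's other libraries by 0.0633 to 0.229, and 6 of 7 animals matched their own best. The contrast was DMT minus the mean of the 5 regions on the log2 scale, tested with edgeR 4.0.16 (TMM factors, glmQLFit, glmQLFTest, R 4.3.3), two-sided, with Benjamini-Hochberg adjustment over all genes tested, and the standard error was taken from the F value. Because logs are averaged, a gene near 0 in some regions can be called although 1 region exceeds DMT, so the region nearest to DMT is given beside it. The script was tested on simulated data with known changes. DESeq2 1.42.0 served as an alternative.

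Named genes were the 15 higher and 10 lower genes furthest from their nearest region, with a mean of at least 5 CPM in DMT or in each of the 5 regions, and the members of 28 gene lists. Some genes are not reported here and were left out of the lists. The members and lists were chosen with earlier results of these data known, so the lists are described by counts and medians and not tested. Genes of the test over conditions that are in no list were named after their values were seen. Figures were drawn with Matplotlib in Python 3.11.15.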

Additional observations from a re-analysis of the deposited data

Results flagged for a closer look

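Slc6a5, the neuronal glycine transporter, had a level of 31 CPM in the DMT library of animal 41, and the gap to the next library was 0.81 of the range of the 7. Crym, one of the genes far lower in DMT, had its highest DMT value, 0.796 CPM, in animal 81, with a gap of 0.65 of the range, and stayed far below the other regions. By the critical gap for 7 samples (Dixon), 2 of 31 sets of 7 libraries examined had a library set apart, where chance gives about 1 in 20.

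The difference between DMT and the mean of the other regions varied with the condition in 27 genes by the F test in edgeR over all 6 groups.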

How the results depend on the processing

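The counts against the mean of the 5 regions stayed within 1.5 times under 20 of the 21 alternatives, and the exception was the use of all gene types that pass the filter, with 2247 genes lower by both thresholds against 1442, since more genes were tested. Leaving out each animal in turn gave 5875 to 5976 genes higher and 5781 to 5935 lower at the adjusted p alone, and 1330 to 1395 higher and 1387 to 1467 lower with the fold threshold. Without the animal number as a replicate block, 1372 genes were higher and 1447 lower with both thresholds, and DESeq2 gave 1365 and 1473. When the pair of Nacc libraries with another animal's identity was left out, an alternative chosen after seeing the data, 1369 were higher and 1445 lower. The test over conditions called 27 genes, 19 without the Nacc (11 of them among the 27), 37 without the replicate block and 27 with RLE factors. It called 43 (21 of them among the 27) without the DMT library highest in 6 telencephalic genes in each group, and 5 (2 of them among the 27) without the 17 DMT libraries above the first group's highest, a limit that leaves no library of that group out. The cause was not tested. Of 2751 values of 131 named genes under these alternatives 5 changed sign, and none of the 3 genes concerned had passed the adjusted p. They were Etv1 (0.04 without the BLA), Kl (0.23 without the BLA) and Sox5 (0.07 with the cortical regions averaged, 0.03 without the PFC and 0.12 without the ACC), and the cause was not tested. A further 20 values lost the adjusted p and 6 gained it, and of those lost 10 were of Drd2 and 7 of Lhx2. All 19 thalamic genes stayed higher by both thresholds under every alternative run, while the habenula list gave 11 to 14 of 14 and the choroid plexus list 7 to 15 of 19. Levels of genes with few counts in a region, such as Gm5741, carry a counting error that limits the fold.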
